A study of Mus musculus with 18 samples.

Results

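The genes described here are 37 genes of protein folding in the endoplasmic reticulum (ER) and of the unfolded protein response, measured by RNASeq in mouse splenic B cells. They were chosen by name, from what their products are known to do, but with earlier results of these data known. Each was matched to its Entrez gene. All 37 were found among the 28096 genes counted, and all 37 passed the filter on low counts that kept 14161 genes for testing. The lowest count of any member in any library was 101. The 18 libraries fall into 6 groups of 3. B cells were isolated from spleens of C57BL/6 N mice at least 8 weeks old, either wild type (WT) or Ubqln1-/-, and were left resting or were stimulated for 4 hr. The stimulus was either F(ab)2 anti-IgM at 10 μg/mL or E. coli K12 LPS at 20 μg/mL. Anti-IgM crosslinks the B cell receptor, and LPS acts through the receptor TLR4. Cells of 3 wells were pooled before RNA was purified, so each library is a pool of wells. The Ubqln1-/- mice carry a germline deletion of exon 2 of Ubqln1, which encodes the ubiquitin-binding chaperone ubiquilin-1, so every cell of these mice lacks it and not only the B cells.

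Secreted and membrane proteins enter the ER through the Sec61 translocon, fold there with the help of chaperones, lectins and disulfide isomerases, and are sent out to the proteasome by ER-associated degradation (ERAD) when folding fails. When unfolded proteins build up, the ER membrane sensors ATF6, IRE1 (gene Ern1) and PERK (gene Eif2ak3) start the unfolded protein response: ATF6 and the IRE1 product XBP1 raise chaperone and ERAD genes, while PERK phosphorylates eIF2α, which slows translation in general but raises that of ATF4. B cells are known for expanding the ER as they turn into antibody-secreting plasma cells.

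Regulatory sequences known from work on this response were searched in the promoters, because they are the textbook link between the sensors and the members. RefSeq promoter windows of 300 bases (250 before and 50 after the start site, GRCm38.p6) were found for 31 of the 37 members. Those of Hspa5, Herpud1 and Trib3 are shown, since they hold the elements described next, alone or together, and each gene rose in both stimulations. Capitals mark the matches, and each line is read along the strand of the gene. Hspa5 lies on the plus strand at chr2:34771840-34772139, Herpud1 on the plus strand at chr8:94386179-94386478 and Trib3 on the minus strand at chr2:152344011-152344310.
Hspa5: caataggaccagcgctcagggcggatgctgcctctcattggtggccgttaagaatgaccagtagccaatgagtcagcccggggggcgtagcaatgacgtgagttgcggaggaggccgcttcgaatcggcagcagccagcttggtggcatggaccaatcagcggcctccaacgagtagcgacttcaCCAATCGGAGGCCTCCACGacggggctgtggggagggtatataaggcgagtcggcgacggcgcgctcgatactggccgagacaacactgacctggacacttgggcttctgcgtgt
Herpud1: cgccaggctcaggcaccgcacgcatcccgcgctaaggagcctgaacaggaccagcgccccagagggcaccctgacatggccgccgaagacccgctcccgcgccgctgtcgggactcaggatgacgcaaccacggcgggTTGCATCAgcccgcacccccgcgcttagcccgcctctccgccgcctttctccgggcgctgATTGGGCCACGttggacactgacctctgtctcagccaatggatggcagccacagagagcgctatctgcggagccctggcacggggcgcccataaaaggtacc
Trib3: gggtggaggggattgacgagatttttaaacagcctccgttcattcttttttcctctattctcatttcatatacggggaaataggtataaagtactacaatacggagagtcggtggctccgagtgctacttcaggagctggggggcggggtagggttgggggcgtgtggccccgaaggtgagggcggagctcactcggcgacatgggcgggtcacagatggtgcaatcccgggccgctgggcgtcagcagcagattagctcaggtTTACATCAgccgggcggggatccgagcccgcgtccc
The Hspa5 window holds the ER stress response element (ERSE, searched as CCAAT and CCACG with any 9 bases between them), the classical site of ATF6 action, from -65 to -47 relative to the start site. The Herpud1 window holds ERSE-II (ATTGG and CCACG with any 1 base between them) from -52 to -42 and, on the opposite strand, a match to the composite element bound by ATF4 with C/EBP proteins (CARE, searched as TGATGNAA) from -112 to -105. In Trib3 the CARE match lies from 14 to 21 after the start site, also on the opposite strand.

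ERSE was found in 8 of the 31 members with a window, which is 25.81%. Of the 10067 tested genes with a window, members included, 16 held it, which is 0.1589%. The 8 members were Hspa5, Hsp90b1 (which holds 2), Dnajc3, Creld2, Calr, Canx, Pdia6 and Syvn1. Since ERSE is known from work on this response, its frequency among the members is no independent result. ERSE-II was found in Dnajb11 and Herpud1, against 0.07947% of tested genes, and CARE in Herpud1 and Trib3, against 2.851%. The E-box CACGTG was found in 3 members (Calr, Dnajb9 and Ssr1), which is 9.677% against 11.82% of tested genes, and the core of the XBP1 element, TGACGTGG, in 0 of 31 against 1.003%. Both strands were searched and no 2 matches of different motifs overlapped. A match is a description of letters in this window and no evidence of binding.

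**Figure D1:**
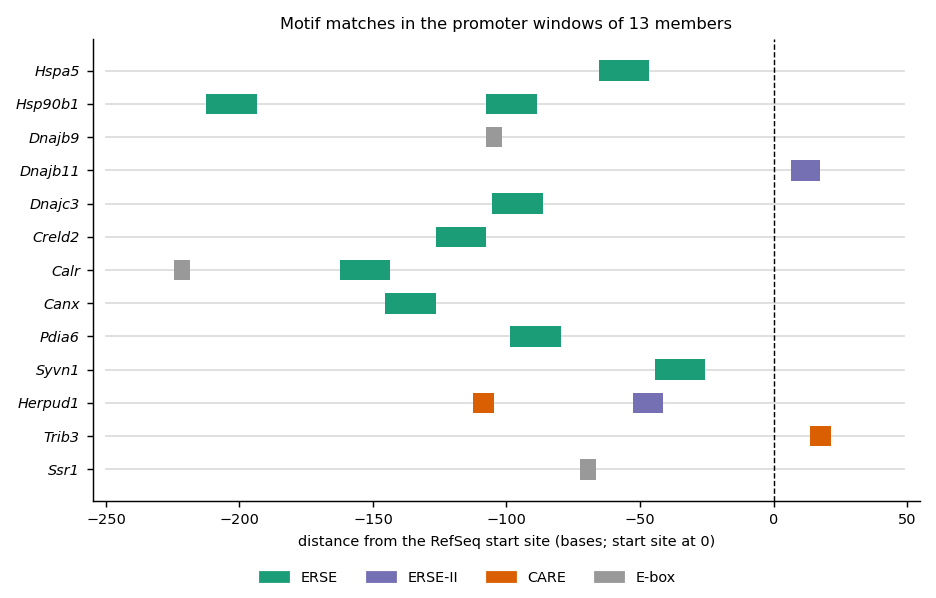
Position of each motif match in the promoter windows of the 13 members that hold any, as distance in bases from the RefSeq start site (dashed line at 0). Each grey line is a window of 300 bases and each coloured bar a match to ERSE, ERSE-II, CARE or the E-box; the 9 ERSE matches all lie before the start site.

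The genotype labels were checked first. Levels are given as RPKM, the reads of a gene scaled to its length and to the depth of the library, so that genes can be set side by side, and marker levels as CPM, which is scaled to depth alone. Ubqln1 stood at 63.5 ± 1.08 RPKM (SD, n = 3) in resting WT cells and at 26.3 ± 2.23 in resting Ubqln1-/- cells, with lower levels in Ubqln1-/- cells in all 3 conditions (log2 fold changes of -1.27, -1.42 and -1.44, edgeR quasi-likelihood adjusted p of at most 6.68e-08). The gene was reduced and not at 0. Counts are for the whole gene, so exon 2 was not looked at on its own. Total counts ran from 15368941 to 41072854 per library, and the LPS libraries of WT cells (28590363 to 41072854) were deeper than those of Ubqln1-/- cells (17224952 to 27515442). The 7 B cell markers examined reached 48.0 to 2497 CPM in every library. Of the 7 T cell markers, 5 stayed under 1 CPM in every library, among them Cd3e, Cd3d and Cd3g, while NK cell markers did not pass 1.33 CPM and erythroid markers 2.03 CPM. Several summed marker levels moved with the stimuli. The B cell sum was 7355 to 8873 CPM in resting WT libraries, 2765 to 3514 after anti-IgM and 5795 to 6873 after LPS. The T cell sum was 46.4 to 59.9, 122 to 211 and 31.9 to 45.3 CPM, nearly all of it Lck (means of 50.3, 157 and 36.9), and the dendritic cell sum 13.0 to 21.8, 21.6 to 30.4 and 41.0 to 70.6 CPM, with Siglech under 1 CPM in every library. The myeloid sum was 29.2 to 55.6, 25 to 28.1 and 21.9 to 25.4 CPM. In Ubqln1-/- libraries these 4 sums moved from rest in the same directions. The plasma cell list summed to 800.3 to 998 CPM in resting WT libraries, to 2344 to 2537 after anti-IgM and to 1824 to 1988 after LPS, and Irf4, which activated B cells also express, made up most of that rise (means of 408, 1927 and 1430 CPM). Of the other markers on this list, Tnfrsf17 did not pass 0.355 CPM in any library. Sdc1 had a mean of 61.4 CPM in resting WT cells, 35.2 after anti-IgM and 10.7 after LPS. Prdm1 (28.4, 20.7 and 19.4 CPM) and Jchain (246, 229 and 181 CPM) also had lower means after both stimuli. Slamf7 went the other way, with means of 144, 227 and 248 CPM. The part of these cell types in the values below was not tested. In a bulk library, fewer cells of a type and less RNA per cell cannot be told apart.

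In resting WT cells the members spanned a wide range of levels per gene length. Calr, the calcium-binding lectin chaperone calreticulin, was the highest, at 249.5 ± 9.78 RPKM (SD, n = 3), followed by the lumenal chaperones Hsp90b1 (190.3 ± 4.37) and Hspa5 (176 ± 12.8) and by the transcription factor Atf4 (166 ± 15.9). Calr lay above Hsp90b1 in every library, while Hsp90b1 overlapped Hspa5 and Hspa5 overlapped Atf4. The lowest were the lumenal HSP70 relative Hspa13 (8.92 ± 0.808), the sensor Ern1 (5.00 ± 0.928) and the pseudokinase Trib3 (4.91 ± 1.64), and Ern1 and Trib3 overlapped. Together the 37 members took 0.641% to 0.685% of all counts in resting WT libraries. After anti-IgM they took 0.927% to 0.969%, and after LPS 0.774% to 0.814%. In Ubqln1-/- libraries the shares were 0.628% to 0.662% at rest, 0.853% to 0.953% after anti-IgM and 0.735% to 0.808% after LPS, so in each genotype the resting, LPS and anti-IgM libraries did not overlap and stood in that order.

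The first comparison asked how B cell receptor crosslinking changed these genes. After anti-IgM, 25 of the 37 members rose in WT cells and 6 fell at an adjusted p under 0.05 (edgeR quasi-likelihood test, Benjamini-Hochberg adjustment over the 14161 genes tested). Of all genes tested, 32.4% rose and 32.2% fell. The members' median log2 fold change was 0.45, and that of all genes tested was -0.01. In Ubqln1-/- cells 23 members rose and 6 fell, against 32.9% and 32.4% of all genes, with a median of 0.42 against -0.02. The 23 and the 6 were called in both genotypes, and 6 members were called in neither. More than 2-fold changes were fewer: 6 members rose and 1 fell by more than that in WT cells (9.49% and 11.1% of all genes), and 7 rose and 1 fell in Ubqln1-/- cells (9.6% and 10.7%). Canx, P4hb and Pdia6 lay just under that line, and without WT resting replicate 2 the 6 became 10. The plot of responses to anti-IgM and LPS shows every member by role.

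**Figure D2:**
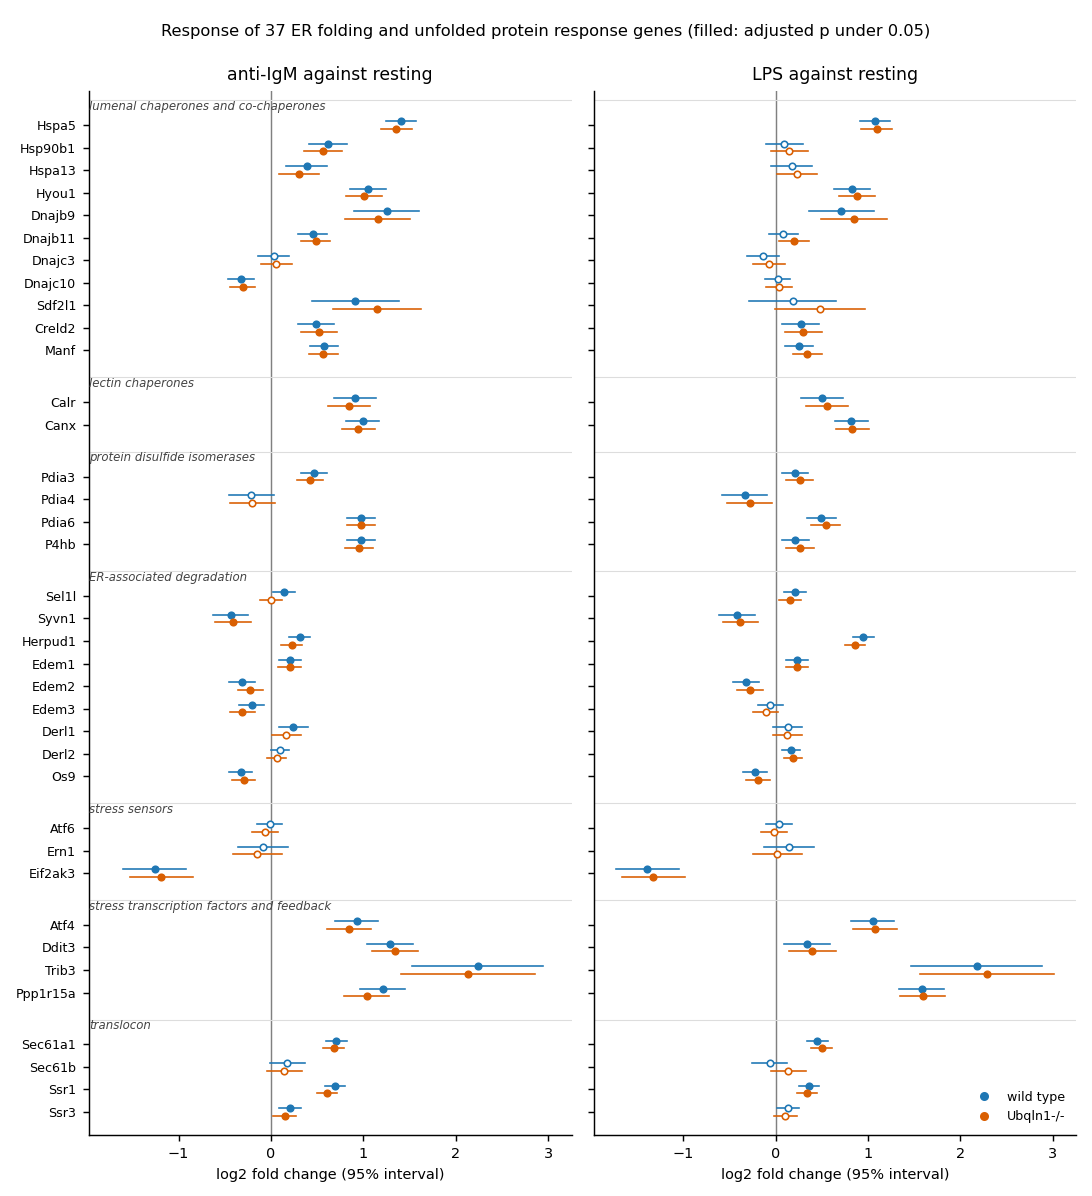
log2 fold change of each member against resting cells of the same genotype, after anti-IgM (left) and LPS (right), with 95% intervals; blue is WT, orange Ubqln1-/-, filled points have an adjusted p under 0.05, and genes are grouped by role. Trib3 has the highest point and Eif2ak3 the lowest in both panels, and the disulfide isomerase P4hb moves from 0.98 in WT cells after anti-IgM to 0.21 after LPS.

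Among the 11 lumenal chaperones and co-chaperones, 9 rose with anti-IgM in each genotype, 1 fell (Dnajc10) and 1 was not called (Dnajc3). Of all genes tested, 32.4% rose and 32.2% fell in WT cells, and 32.9% and 32.4% in Ubqln1-/- cells. Hspa5 encodes BiP, the HSP70 of the ER lumen, which also holds the sensors inactive (chr2:34772090-34776529). It stood at 162, 187 and 181 RPKM in replicates 1, 2 and 3 of resting WT cells and at 457, 474 and 474 after anti-IgM. In Ubqln1-/- cells the values were 167, 176 and 155 at rest and 453, 423 and 400.4 after anti-IgM. Every stimulated library lay above every resting library. The rise was 2.65-fold in WT cells (log2 fold change 1.41, SE 0.0780, adjusted p = 4.67e-10) and 2.56-fold in Ubqln1-/- cells (1.36, SE 0.0779).

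Dnajb9 (ERdj4), a co-chaperone of BiP that represses IRE1, had values of 9.32, 12.4 and 14.3 RPKM in resting WT cells and 23.3, 32.7 and 30.6 after anti-IgM, with 9.50, 12.6 and 10.0 rising to 20.2, 27.7 and 23.7 in Ubqln1-/- cells. Stimulated and resting libraries did not overlap in either genotype, and the log2 fold changes were 1.26 (SE 0.166) and 1.15 (SE 0.167). Hyou1, the nucleotide exchange factor of BiP, rose 2.08-fold in WT cells and 2.01-fold in Ubqln1-/- cells. Sdf2l1, which keeps BiP clients soluble together with Dnajb11, rose 1.89-fold and 2.21-fold. Hsp90b1 (GRP94, the HSP90 of the ER) rose by 0.62 and 0.56 on the log2 scale, the secreted ER stress protein Manf by 0.57 in each, Creld2 by 0.49 and 0.52, Dnajb11 by 0.45 and 0.48 and Hspa13 by 0.39 and 0.30. Dnajc10 (ERdj5), a disulfide reductase that works in ERAD, fell by 0.33 and 0.31. Dnajc3 (P58IPK), which inhibits eIF2α kinases, had log2 fold changes of 0.03 and 0.06.

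The lectin chaperones and most disulfide isomerases rose together. Calr and Canx (calnexin), which bind glycoproteins that carry a single glucose, rose by 0.91 and 0.99 on the log2 scale in WT cells and by 0.84 and 0.94 in Ubqln1-/- cells. Of the 4 disulfide isomerases, P4hb (PDI), Pdia6 and Pdia3 (ERp57, which works with Calr and Canx) rose, by 0.98, 0.98 and 0.46 in WT cells. Pdia4 (ERp72) was the exception, with log2 fold changes of -0.21 and -0.20 that did not pass the test (adjusted p = 0.117 and 0.136). With the replicate number as a block, Pdia4 was lower in both genotypes (adjusted p = 0.000811 in WT and 0.00142 in Ubqln1-/- cells).

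The 9 ERAD genes did not move one way: in WT cells 4 rose, 4 fell and 1 was not called. Of all genes tested, 32.4% rose and 32.2% fell there. In Ubqln1-/- cells 2 of the 9 rose and 4 fell, against 32.9% and 32.4% of all genes. Herpud1, which organises the ubiquitin ligase complex in the ER membrane, rose by 0.31 in WT cells and by 0.22 in Ubqln1-/- cells. Derl1, a channel subunit, rose by 0.24 in WT cells, and Edem1, which recognises misfolded glycoproteins, by 0.20. Sel1l, the partner of the ligase, had a log2 fold change of 0.14 in WT cells (adjusted p = 0.0355) and 0.00 in Ubqln1-/- cells. The ligase itself, Syvn1 (HRD1), fell by 0.44 and 0.41, the lectin Os9 by 0.33 and 0.30, Edem2 by 0.32 and 0.22 and Edem3 by 0.21 and 0.31. Derl2 had log2 fold changes of 0.10 and 0.06. Derl1 in Ubqln1-/- cells (0.17, adjusted p = 0.0587) was called only with the replicate block (adjusted p = 0.00565).

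Of the 3 sensors, only the mRNA of Eif2ak3 changed after anti-IgM. Eif2ak3 (chr6:70844484-70905241) had 90.1, 91.0 and 110.0 RPKM in resting WT cells and 38.4, 38.5 and 44.9 after anti-IgM. In Ubqln1-/- cells 86.9, 93.7 and 110.2 RPKM became 36.9, 41.8 and 49.1. No stimulated library reached a resting one, and replicate 3 was the highest in each of these 4 groups. The mRNA fell by 1.26 on the log2 scale in WT cells (SE 0.162, adjusted p = 3.38e-06), or 2.39-fold lower, and by 1.19 in Ubqln1-/- cells (SE 0.161).

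Atf6 stood at 23.2, 23.4 and 23.1 RPKM in resting WT libraries and at 20.6, 24.5 and 23.9 after anti-IgM, and the groups overlapped, with a log2 fold change of -0.01 (95% interval -0.15 to 0.12). Ern1 stood at 6.00, 4.17 and 4.82 RPKM at rest and at 5.35, 4.74 and 3.94 after anti-IgM, with a log2 fold change of -0.08 (95% interval -0.35 to 0.19). These are mRNA levels; the sensors are switched on at the protein level, which was not measured here.

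All 4 genes below the sensors rose in both genotypes. Atf4, the transcription factor whose translation rises when eIF2α is phosphorylated, had 151, 182 and 166 RPKM in resting WT cells and 286, 346 and 319 after anti-IgM, and in Ubqln1-/- cells 146, 154 and 159 became 265, 291 and 269.7. Stimulated libraries lay above resting ones throughout, and the log2 fold changes were 0.93 (SE 0.111) and 0.84 (SE 0.110). Ddit3 (CHOP, chr10:127290793-127296291), a transcription factor of the ATF4 arm known for driving apoptosis in prolonged stress, went from 26.7, 35.5 and 31.1 RPKM to 74.4, 80.8 and 73.9 in WT cells and from 25.7, 31.8 and 28.0 to 73.4, 77.6 and 66.0 in Ubqln1-/- cells. These groups did not overlap either, with rises of 2.45-fold and 2.54-fold (log2 1.29 and 1.34, SE 0.118 each).

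Trib3 (chr2:152337425-152344060), a target of ATF4 and CHOP that restrains them, had the largest log2 fold change of the members. It stood at 3.15, 6.38 and 5.20 RPKM in resting WT libraries and at 14.7, 27.8 and 28.4 after anti-IgM. In Ubqln1-/- libraries it stood at 2.93, 4.84 and 4.26 at rest and at 14.4, 19.1 and 19.6 after anti-IgM. Groups did not overlap, but replicates spread more than for any other member, and replicate 1 was the lowest of each of these groups. The rise was 4.71-fold in WT cells (log2 2.24, SE 0.337, adjusted p = 1.93e-05) and 4.39-fold in Ubqln1-/- cells (2.14, SE 0.342). Ppp1r15a (GADD34, chr7:45522917-45526268), the phosphatase subunit that reverses eIF2α phosphorylation, went from 19.6, 27.3 and 26.9 RPKM to 50.2, 62.2 and 58.7 in WT cells and from 20.5, 21.7 and 24.5 to 45.0, 45.5 and 46.4 in Ubqln1-/- cells. It rose 2.31-fold (log2 1.21, SE 0.115) and 2.05-fold (1.04, SE 0.115), again with no overlap.

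Of the 4 translocon genes, Sec61a1, the channel, rose by 0.71 and 0.68 on the log2 scale, and the translocon-associated subunits Ssr1 and Ssr3 by 0.70 and 0.21 in WT cells and by 0.60 and 0.15 in Ubqln1-/- cells. Sec61b, another channel subunit, was not called (0.18 and 0.14). Its RPKM of 16.2 to 21.9 rested on few reads for the subunit of an abundant complex, and since the treatment of reads that map to more than 1 place is not given in the sources used here, its level is uncertain.

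**Figure D3:**
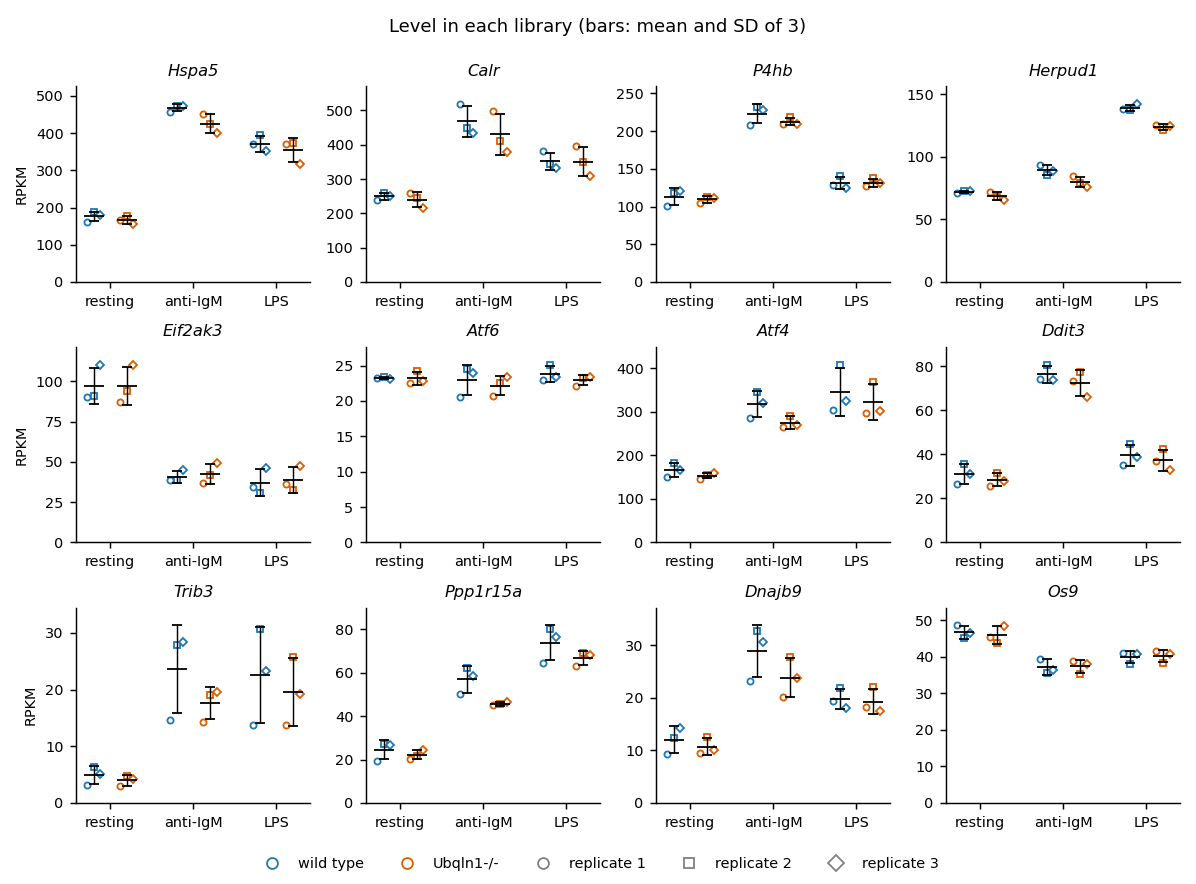
RPKM (linear axis from 0) of 12 members in each of the 18 libraries, by condition; blue is WT, orange Ubqln1-/-, circles, squares and diamonds are replicates 1, 2 and 3, and black bars give the mean and SD of 3. Hspa5, P4hb and Ddit3 are highest after anti-IgM, Herpud1 and Ppp1r15a after LPS, Eif2ak3 is highest at rest, and Atf6 lies between 20.6 and 25.1 in every library.

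The next comparison asked the same of LPS. It used the same resting libraries as the comparison above, so the values are set side by side and no likeness between both is measured. After LPS, 20 members rose and 5 fell in WT cells, where 31.2% of all genes rose and 30.1% fell, and the members' median log2 fold change was 0.21 against -0.01. In Ubqln1-/- cells 21 rose and 5 fell, against 30.6% and 30.2% of all genes, with a median of 0.23 against -0.02. In both genotypes 20 members rose and 5 fell, while 11 were called in neither. More than 2-fold changes were 4 rises and 1 fall in each genotype (7.84% and 7.94% of all genes in WT cells, 7.82% and 8.12% in Ubqln1-/- cells). The 5 that fell in Ubqln1-/- cells became 3 without KO LPS replicate 2 or without the filter on low counts.

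Trib3 and Ppp1r15a had the largest log2 fold changes after LPS, and Atf4, of the same arm, lay just under Hspa5. Trib3 stood at 13.7, 30.6 and 23.3 RPKM in WT cells and at 13.7, 25.7 and 19.2 in Ubqln1-/- cells, above every resting library, with rises of 4.52-fold (log2 2.18, SE 0.335) and 4.89-fold (2.29, SE 0.344). Ppp1r15a stood at 64.7, 80.0 and 76.7 RPKM in WT cells and at 63.3, 69.0 and 68.4 in Ubqln1-/- cells. It rose 2.99-fold and 3.01-fold, with no overlap with rest. Atf4 stood at 304, 408 and 324 RPKM and at 298, 369 and 301, with log2 fold changes of 1.05 (SE 0.111) and 1.07 (SE 0.111), also above every resting library.

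Ddit3, in contrast to its rise after anti-IgM, reached only 35.2, 44.6 and 38.8 RPKM in WT cells and 36.98, 42.4 and 33.0 in Ubqln1-/- cells. The WT values overlapped those at rest, and the log2 fold changes were 0.34 (SE 0.117, adjusted p = 0.0184) and 0.40 (SE 0.119, adjusted p = 0.00854). The call in WT cells was lost without WT resting replicate 1 (0.24, adjusted p = 0.1002) or WT LPS replicate 2 (0.24, adjusted p = 0.109) and in a fit of those groups alone (adjusted p = 0.0503), and that in Ubqln1-/- cells without KO LPS replicate 2 (0.29, adjusted p = 0.0627). Of the sensors, Eif2ak3 again fell, to 34.4, 30.5 and 46.3 RPKM in WT cells and 36.0, 32.7 and 47.6 in Ubqln1-/- cells, all below the resting libraries. It was 2.62-fold and 2.50-fold lower (log2 -1.39 and -1.32, SE 0.162 each, adjusted p = 1.64e-06 and 2.91e-06). Atf6 had 22.9, 25.1 and 23.4 RPKM in WT cells and Ern1 6.00, 5.66 and 4.79, within or overlapping the range at rest, and their log2 fold changes were 0.04 (95% interval -0.10 to 0.17) and 0.14 (-0.12 to 0.41).

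Among the chaperones 5 of 11 rose in WT cells after LPS and none fell, where 31.2% of all genes rose and 30.1% fell. Hspa5 reached 370.1, 394 and 351 RPKM in WT cells and 371, 373 and 317 in Ubqln1-/- cells, all above rest, which is 2.11-fold and 2.13-fold (log2 1.08 and 1.09). Hyou1 rose by 0.83 and 0.88 on the log2 scale, Dnajb9 by 0.71 and 0.85, Creld2 by 0.27 and 0.30 and Manf by 0.25 and 0.34. Hsp90b1 stood at 213, 201 and 195 RPKM in WT cells against 185, 193 and 192 at rest, a log2 fold change of 0.09 (adjusted p = 0.415), and of 0.15 in Ubqln1-/- cells (adjusted p = 0.195, or 0.0461 with the replicate block). Sdf2l1 stood at 20.1, 15.3 and 13.1 RPKM in WT cells against 15.5, 14.2 and 13.1 at rest, with log2 fold changes of 0.18 and 0.48. That of Ubqln1-/- cells did not pass the test (adjusted p = 0.0820) but did with the replicate block (adjusted p = 0.000131), since replicates 1, 2 and 3 differed from the resting library of the same number by 0.48, 0.46 and 0.52.

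Canx and Calr rose by 0.82 and 0.50 on the log2 scale in WT cells, Pdia6 by 0.50, P4hb and Pdia3 by 0.21 each, and Pdia4 fell by 0.33. In Ubqln1-/- cells these were 0.83, 0.55, 0.54, 0.26, 0.26 and -0.28. P4hb in WT cells lost its call without WT resting replicate 1 (0.13, adjusted p = 0.0788), without WT LPS replicate 2 (0.16, adjusted p = 0.0810) and in a fit of those groups alone (adjusted p = 0.0812). Herpud1 was the ERAD gene that changed most, from 70.9, 72.5 and 72.6 RPKM to 138, 137 and 142 in WT cells and from 71.9, 67.8 and 65.5 to 125, 122 and 124 in Ubqln1-/- cells. The groups lay far apart and each spread little (log2 0.95, SE 0.0518, adjusted p = 1.19e-09, and 0.86, SE 0.0519). Edem1, Sel1l and Derl2 rose by 0.23, 0.21 and 0.17 in WT cells, and Syvn1, Edem2 and Os9 fell by 0.42, 0.32 and 0.22. Of the translocon genes Sec61a1 and Ssr1 rose, by 0.45 and 0.36.

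With the replicate block a few smaller differences also passed after LPS. In WT cells Hspa13 (0.17), Ssr3 (0.13) and Derl1 (0.13) were then higher and Dnajc3 was lower (-0.14), and in Ubqln1-/- cells Hspa13 (0.22) and Derl1 (0.12) were higher.

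Setting both stimuli against each other showed where they differed. In WT cells 3 members were higher after LPS than after anti-IgM and 14 were lower, against 17.4% and 15% of all genes tested, and in Ubqln1-/- cells 5 were higher and 11 lower, against 16.8% and 14.5%. In both genotypes 3 were higher and 11 lower, and 18 were called in neither. The medians were -0.16 and -0.08, against 0.00 and 0.01 over all genes, and no member differed by more than 2-fold, where 5.52% of all genes were higher and 3.91% lower by that much in WT cells and 4.69% and 4.04% in Ubqln1-/- cells. Leaving out WT LPS replicate 2, KO anti-IgM replicate 3 or KO LPS replicate 2 left 1 member lower by more than 2-fold. These counts moved with single libraries in Ubqln1-/- cells: the 5 became 3 without KO anti-IgM replicate 1, KO LPS replicate 1 or KO LPS replicate 2, and the 11 became 6 without KO anti-IgM replicate 1 and 7 without KO LPS replicate 3. With the replicate block the WT counts were 4 and 19 (22.4% and 20.4% of all genes) and the Ubqln1-/- counts 8 and 14 (22.2% and 19.6%).

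The genes lower after LPS were chaperones, isomerases, translocon genes and Ddit3. Ddit3 was 1.93-fold lower after LPS in both genotypes (log2 -0.95, SE 0.114 and 0.116, adjusted p = 5.01e-06 and 6.96e-06), and its LPS libraries (33.0 to 44.6 RPKM) lay below all anti-IgM libraries (66.0 to 80.8). P4hb stood at 208, 232 and 228 RPKM after anti-IgM and at 129, 140.0 and 124 after LPS in WT cells, and at 209.5, 218 and 209.7 and at 127, 137 and 131 in Ubqln1-/- cells. Its groups did not overlap, and LPS libraries were 1.70-fold and 1.61-fold lower (adjusted p = 2.32e-07 and 8.84e-07). Hsp90b1 stood at 321, 292 and 263 RPKM after anti-IgM against 213, 201 and 195 after LPS in WT cells, and at 305, 276 and 234 against 222, 206 and 184 in Ubqln1-/- cells. It was 1.44-fold and 1.33-fold lower, with no overlap.

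Sdf2l1 stood at 31.8, 25.3 and 23.4 RPKM after anti-IgM in WT cells and at 32.5, 22.2 and 20.6 in Ubqln1-/- cells, against 20.3, 15.3 and 12.2 after LPS in the latter. Replicate 1 was the highest in each group. The differences were -0.73 (SE 0.217, adjusted p = 0.0151) and -0.66 (SE 0.221, adjusted p = 0.0303). The WT call was lost without WT anti-IgM replicate 1 (-0.59, adjusted p = 0.0735) or WT LPS replicate 3 (-0.60, adjusted p = 0.0689), and the other without KO anti-IgM replicate 1 (-0.43, adjusted p = 0.185), KO LPS replicate 2 (-0.63, adjusted p = 0.0850) or KO LPS replicate 3 (-0.51, adjusted p = 0.137). Pdia6, Calr, Dnajb11, Manf, Hspa5, Ssr1 and Sec61a1 were also lower after LPS in both genotypes, by 0.26 to 0.48 on the log2 scale in WT cells. For Hspa5 the difference was -0.33 in WT cells and -0.27 in Ubqln1-/- cells, and the latter was not called without KO anti-IgM replicate 1 (-0.22, adjusted p = 0.0747) or KO LPS replicate 3 (-0.19, adjusted p = 0.0846). Dnajb9 differed by -0.54 in WT cells, which was not called without WT anti-IgM replicate 2 (adjusted p = 0.0763) or WT LPS replicate 3 (adjusted p = 0.0564), and by -0.30 in Ubqln1-/- cells (adjusted p = 0.175, or 0.0207 with the replicate block).

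The genes higher after LPS in both genotypes were Herpud1, Ppp1r15a and Dnajc10. Herpud1 was 1.56-fold higher in WT cells and 1.55-fold higher in Ubqln1-/- cells (log2 0.64 and 0.63, adjusted p = 4.52e-08 and 6.41e-08), with anti-IgM libraries at 76.2 to 93.4 RPKM and LPS libraries at 122 to 142. Ppp1r15a was higher by 0.37 and 0.55 on the log2 scale (adjusted p = 0.0157 and 0.00101). The WT value was not called without WT anti-IgM replicate 1 (0.29, adjusted p = 0.0794), WT LPS replicate 2 (0.31, adjusted p = 0.0659) or WT LPS replicate 3 (0.34, adjusted p = 0.0503). Dnajc10, which had fallen after anti-IgM, was higher by 0.35 and 0.34. Atf4, Trib3 and Eif2ak3 were not called: their differences were 0.12, -0.06 and -0.13 in WT cells, with 95% intervals of -0.11 to 0.35, -0.70 to 0.58 and -0.47 to 0.20. Atf4 was higher by 0.22 in Ubqln1-/- cells with the replicate block (adjusted p = 0.00652). With the block the list also gained Dnajc3, Hspa13, Hyou1, Canx and Creld2 as lower and Os9 as higher in WT cells, and Pdia3 and Creld2 as lower and Sel1l and Os9 as higher in Ubqln1-/- cells.

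**Figure D4:**
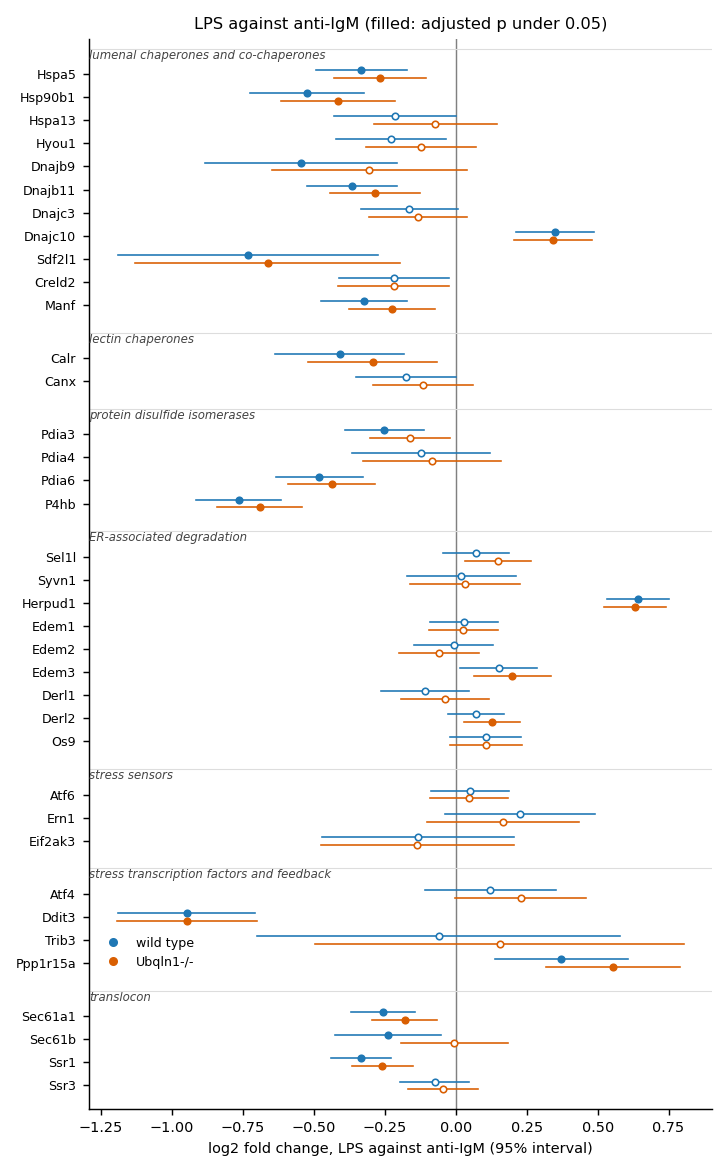
log2 fold change of each member after LPS against after anti-IgM within a genotype, with 95% intervals; blue is WT, orange Ubqln1-/-, and filled points have an adjusted p under 0.05. Ddit3 (-0.95 in both genotypes) lies farthest to the left and Herpud1 (0.64 and 0.63) farthest to the right.

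The promoter matches can be set beside these values. Of the 8 members with ERSE, 6 rose after anti-IgM in WT cells, Dnajc3 was not called and Syvn1 fell, and after LPS 5 rose and 1 fell. Of all genes tested 32.4% rose and 32.2% fell after anti-IgM, and 31.2% and 30.1% after LPS. Their median log2 fold change in WT cells was 0.76 after anti-IgM and 0.38 after LPS. The 21 members with a window and neither ERSE nor ERSE-II included 12 that rose and 5 that fell after anti-IgM, with a median of 0.20, and 11 and 4 after LPS, with a median of 0.18. Herpud1 and Trib3, which hold CARE, rose in both stimulations. In WT cells so did the 3 members with the E-box (Calr, Dnajb9 and Ssr1), of which Calr also holds ERSE. Between stimuli in WT cells, 4 of the 8 members with ERSE were lower after LPS and none was higher. Of the 21 with neither ERSE nor ERSE-II, 7 were lower and 2 higher. All 3 members with the E-box were lower. Of all genes tested, 15% were lower and 17.4% higher.

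The comparison the study was built for is that of the genotypes. Without a replicate block, edgeR's quasi-likelihood test called 0 members between Ubqln1-/- and WT cells in each of the 3 conditions. Of all genes it called 0.0565% at rest, 0.0989% after anti-IgM and 0.0424% after LPS. At an unadjusted p under 0.05 there were 0, 2 and 2 members, against 4.22%, 5.14% and 3.93% of all genes. limma with voom and DESeq2, also without a block, called 0 members in each condition too, with 0, 2 and 2 at an unadjusted p under 0.05 by either tool. With the replicate block, edgeR called 0, 1 and 0 members at rest, after anti-IgM and after LPS. Of all genes, 0.346%, 0.664% and 0.883% were called in that fit. At an unadjusted p under 0.05 it had 1, 7 and 3 members, and the share of all genes at that level was not computed. The numbers were taken to pair samples after each stimulus but not at rest. Without the block, the 95% interval of the difference lay within 0.5 of 0 on the log2 scale for 34 of the 37 members at rest, for 33 after anti-IgM and for 36 after LPS. It was widest for Trib3, from -1.08 to 0.45 at rest, from -1.06 to 0.23 after anti-IgM and from -0.85 to 0.44 after LPS, so differences of that size in Trib3 were not excluded. The plasma cell list summed to 690.3 to 797 CPM in resting Ubqln1-/- libraries and to 2083 to 2227 after anti-IgM, both below the WT ranges given above. After LPS the ranges overlapped (1786 to 1899.6 against 1824 to 1988 CPM in WT libraries). Jchain, the joining chain of IgM and IgA, had means of 131, 120 and 91.4 CPM at rest, after anti-IgM and after LPS, against 246, 229 and 181 in WT cells. Irf4, which activated B cells also express, had means of 383, 1751 and 1404 CPM against 408, 1927 and 1430. Sdc1 had 48.4, 34.9 and 9.59 CPM against 61.4, 35.2 and 10.7, and Prdm1 20.7, 13.3 and 16.1 against 28.4, 20.7 and 19.4. Slamf7 went the other way, at 149, 239 and 304 CPM against 144, 227 and 248. Neither these differences nor the part of this list in the members' values was tested.

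**Figure D5:**
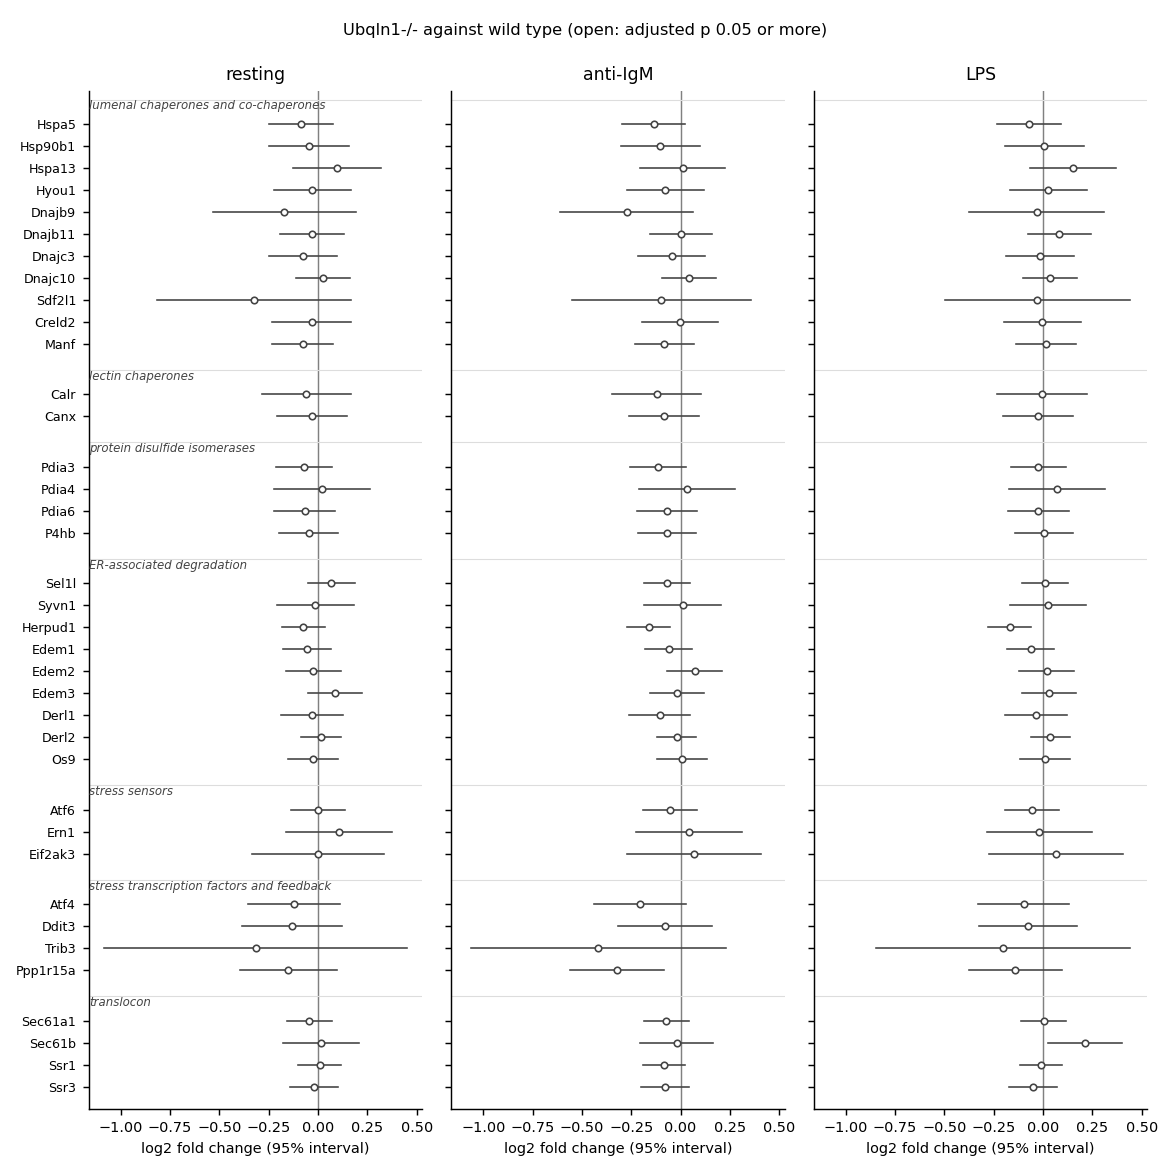
log2 fold change of each member in Ubqln1-/- against WT cells at rest, after anti-IgM and after LPS, with 95% intervals. All points are open, since none has an adjusted p under 0.05 in the fit without a replicate block. Of 37 points, 28 lie left of 0 in the resting panel, 28 in the anti-IgM panel and 20 in the LPS panel. In the LPS panel Herpud1 and Sec61b have intervals that leave out 0.

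In the fit without the block, Herpud1 had the smallest p of the members in each condition. Its levels after LPS were 125, 122 and 124 RPKM in Ubqln1-/- cells and 138, 137 and 142 in WT cells, and after anti-IgM 84.3, 78.9 and 76.2 against 93.4, 85.5 and 88.7. In both conditions every Ubqln1-/- library lay below every WT library, whereas the resting groups overlapped. The log2 fold changes were -0.07 at rest (95% interval -0.18 to 0.04), -0.16 after anti-IgM (-0.27 to -0.05, adjusted p = 0.549) and -0.17 after LPS (-0.28 to -0.06, adjusted p = 0.559) by edgeR's quasi-likelihood test. They were lower in 3 of 3 pairs of the same replicate number in both stimulations. With the replicate block the adjusted p-values were 0.126 after anti-IgM and 0.0979 after LPS, also above the threshold.

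Ppp1r15a was the other member with an unadjusted p under 0.05 after anti-IgM in the fit without the block. Its 3 Ubqln1-/- libraries lay close together at 45.0, 45.5 and 46.4 RPKM, below the WT values of 50.2, 62.2 and 58.7. The difference was -0.32 on the log2 scale (95% interval -0.56 to -0.09, adjusted p = 0.678, edgeR quasi-likelihood test). With the replicate number as a block the size was the same and the test passed (log2 -0.32, SE 0.0683, adjusted p = 0.0452), and it was then the single member called, with 0.664% of all genes called in that fit. By replicate number the differences were -0.16, -0.45 and -0.34. At rest and after LPS Ppp1r15a differed by -0.15 and -0.14, with overlapping groups. Sec61b was higher in every Ubqln1-/- library after LPS (log2 0.21, 95% interval 0.02 to 0.40, adjusted p = 1.00), on the few reads described above.

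Small differences leaned to lower values in Ubqln1-/- cells. By sign alone, 28 of the 37 members were lower at rest, 28 after anti-IgM and 20 after LPS. After anti-IgM 18 were lower in 3 of 3 pairs of the same number and 1 was higher, where 18.8% and 19.1% of all genes were. After LPS 7 were lower and 5 higher (15.3% and 16% of all genes). At rest 5 were lower and 1 higher (12.3% and 13.7%), but there the numbers were not taken to pair samples. After anti-IgM 6 members (Hspa5, Pdia3, Sel1l, Herpud1, Ppp1r15a and Ssr3) had every Ubqln1-/- library below every WT library, against 5.08% of all genes. None had every Ubqln1-/- library above, where 6.32% of all genes did. At rest Sel1l alone was higher in every Ubqln1-/- library and none was lower (4.45% and 3.43% of all genes), and after LPS Sec61b alone was higher and Herpud1 alone lower (3.66% and 3.35%). The median difference was -0.07 after anti-IgM, -0.03 at rest and -0.01 after LPS, where all genes had 0.00 in each. Since these counts take the members as they come and the members share their libraries, they carry no p.

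Whether the response to a stimulus differed between genotypes was tested as an interaction. For neither stimulus was a member called by edgeR's quasi-likelihood test, and 0 of the 14161 genes were. At an unadjusted p under 0.05 there were 0 members for each stimulus, against 0.989% of all genes for anti-IgM and 1.55% for LPS, and limma with voom and DESeq2 also called 0 members, with 0 at an unadjusted p under 0.05. The difference of responses ranged from -0.17 to 0.23 over the members for anti-IgM and from -0.12 to 0.30 for LPS, with the highest value at Sdf2l1 in both. The 95% interval lay within 0.5 of 0 on the log2 scale for 32 members for each stimulus and within 1 for 36. For Hspa5 it ran from -0.28 to 0.18 for anti-IgM and from -0.21 to 0.25 for LPS, for Ddit3 from -0.29 to 0.40 and from -0.30 to 0.41, and for Trib3 from -1.11 to 0.90 and from -0.89 to 1.12.

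Members also differed between replicate numbers within all 6 groups. Trib3, Atf4, Ppp1r15a and Edem1 were lowest in replicate 1 of every group, Dnajb11, Sdf2l1 and Pdia4 in replicate 3, and Os9 in replicate 2. These are 8 of 37 members with 1 number lowest throughout, against 9.7% of all genes tested. In 6 of 37 members 1 number was highest throughout, against 12.4% of all genes tested. Within replicate numbers 1, 2 and 3 Ppp1r15a differed by 1.36, 1.19 and 1.12 on the log2 scale between anti-IgM and resting WT libraries, and Trib3 by 2.22, 2.12 and 2.45. Smaller changes varied more with the number: Sdf2l1 differed by 0.38, 0.11 and -0.00328 between LPS and resting WT libraries.

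A further 87 genes of the same pathways were looked up, and 84 passed the filter. They were listed by function, but with earlier results of these data known. After anti-IgM 46 rose and 18 fell in WT cells, which is 54.8% and 21.4% of the 84 against 32.4% and 32.2% of all genes, and 47 and 20 in Ubqln1-/- cells (32.9% and 32.4% of all genes). After LPS 42 rose and 19 fell in WT cells, which is 50% and 22.6% against 31.2% and 30.1% of all genes, and 41 and 18 in Ubqln1-/- cells (30.6% and 30.2%). Among 28 genes of translocation, signal peptidase and the oligosaccharyltransferase, 21 rose and 3 fell after anti-IgM in WT cells (median 0.47), and 18 rose and 3 fell after LPS (median 0.28). Between stimuli, 15 of these 28 were lower and 2 higher after LPS in WT cells, against 15% and 17.4% of all genes. Of 20 further ERAD genes 7 rose and 5 fell after anti-IgM in WT cells, and of 21 further folding genes 8 rose and 7 fell, against 32.4% and 32.2% of all genes.

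Xbp1, the transcription factor activated by IRE1 splicing, moved in opposite directions with each stimulus. It stood at 56.6, 58.0 and 66.5 RPKM in resting WT cells, at 76.2, 67.5 and 77.5 after anti-IgM and at 50.7, 40.9 and 50.8 after LPS, and these 3 groups did not overlap. The log2 fold changes were 0.29 (adjusted p = 0.0284) and -0.35 (adjusted p = 0.0110) in WT cells and 0.35 and -0.31 in Ubqln1-/- cells. They were small, and leaving out single libraries took away the call of each: after anti-IgM in WT cells this held for resting replicates 1 and 2 and anti-IgM replicates 1 and 3 (0.24 to 0.27, adjusted p of 0.0686 to 0.113), and in Ubqln1-/- cells for resting replicate 3 (0.27, adjusted p = 0.0545). After LPS it held for resting replicate 3 and LPS replicate 2 of WT cells (-0.27 and -0.25, adjusted p = 0.0730 and 0.0695) and for resting replicates 1 and 2 and LPS replicates 2 and 3 of Ubqln1-/- cells (-0.28 to -0.24, adjusted p of 0.0723 to 0.114). The difference between stimuli was -0.63 and -0.66 (adjusted p = 0.000208 and 0.000167), and it was called without any 1 library. Spliced and unspliced Xbp1 mRNA are counted together here.

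The other pathway genes with the largest changes were chosen for that size, and all 5 rose after anti-IgM and after LPS in WT cells. Atf3, a stress-induced transcription factor, went from 0.938, 2.54 and 3.68 RPKM in resting WT cells to 11.02, 12.7 and 17.8 after anti-IgM and to 5.55, 8.57 and 9.14 after LPS, with log2 fold changes of 2.50 and 1.66. Chac1, which degrades glutathione, went from 1.71, 4.05 and 4.57 RPKM to 8.98, 17.5 and 14.4 and to 12.6, 26.7 and 21.4 (log2 1.95 and 2.52). Asns, asparagine synthetase, went from 3.32, 6.81 and 6.59 RPKM to 16.5, 23.2 and 20.7 and to 17.6, 30.0 and 20.8 (log2 1.83 and 2.01). In WT cells stimulated libraries of all 3 lay above every resting library.

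Sesn2, a stress-induced inhibitor of mTORC1 signalling, rose by 1.41 after anti-IgM and by 1.43 after LPS on the log2 scale, from 6.16, 9.13 and 9.22 RPKM to 14.8, 24.5 and 26.5 and to 15.2, 27.6 and 23.7. Cebpb, the C/EBP partner of ATF4, rose by 1.52 after anti-IgM, from 2.64, 4.66 and 6.23 RPKM to 8.06, 13.9 and 17.5. After LPS its values of 5.84, 10.9 and 11.995 overlapped those at rest (1.07, adjusted p = 0.0114), and the call was lost without WT resting replicate 1 (0.82, adjusted p = 0.0577). Trib3, Atf3, Chac1, Asns, Sesn2 and Cebpb all had their lowest resting WT value in replicate 1.

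Of the 7 further folding genes that fell after anti-IgM in WT cells, Mzb1 and Ero1b were picked out after their values were seen, as was Ero1a of the 8 that rose. Mzb1, a BiP-bound co-chaperone of immunoglobulin folding, went from 289, 285 and 225 RPKM in resting WT cells to 106, 80.6 and 93.6 after anti-IgM and to 158, 123 and 139 after LPS. Ero1b, an oxidase of disulfide isomerases, went from 47.0, 41.8 and 43.6 RPKM to 20.3, 15.4 and 16.0 and to 25.4, 18.7 and 23.1. Neither gene's stimulated libraries overlapped those at rest, and the log2 fold changes were -1.51 and -0.93 for Mzb1 and -1.36 and -0.98 for Ero1b. Its paralog Ero1a rose over the same 4 hr, from 7.66, 8.12 and 7.84 RPKM to 15.7, 20.2 and 17.6 after anti-IgM and to 19.0, 22.4 and 17.8 after LPS (log2 1.18 and 1.33).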

How the data were processed

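RNASeq libraries (polyA RNA, TruSeq v2, single-end reads) were aligned by the authors to GRCm38 with GSNAP, per the labels. The counter, its use of strand and its treatment of reads mapping to several places are not given in the sources used here, so reads of overlapping genes cannot be told apart. The deposited counts are whole numbers of exonic reads per Entrez gene and were not normalized. RPKM printed here was computed from the counts, the deposited gene widths and TMM library sizes. The RPKM deposited by the authors was not used.

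Counts were tested with edgeR 4.0.16 in R 4.3.3 (TMM, filterByExpr, quasi-likelihood, 1 term for each of 6 groups, no block), with Benjamini-Hochberg adjustment over 14161 genes and a threshold of 0.05. The scripts were tested on simulated data. Alternatives were limma 3.58.1 with voom, DESeq2 1.42.0, RLE factors, no filter beyond 1 count, at least 10 counts in every sample, a replicate block, only the groups compared, and each sample left out. CPM used the same TMM library sizes. Gene symbols came from RefSeq GRCm38.p6, which named 25035 of the 28096 genes.

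The members, the other gene lists and the motifs were chosen with earlier results of these data known. Values by library are given for the 6 members with the largest WT log2 fold change per stimulus and the 5 for LPS against anti-IgM (called in the same direction in both genotypes, at least 10 CPM), the sensors, Hspa5, the member with the smallest p between genotypes, Xbp1 and the 4 other pathway genes of largest change per stimulus.

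Replicates without a number in their labels were taken as replicate 1. The study describes 3 independent experiments. Deviations from group means correlated between samples of the same number (r = 0.228 to 0.516 within a genotype, 0.205 to 0.388 between genotypes after anti-IgM and 0.253 to 0.319 after LPS), so the numbers were taken to pair samples there. Between genotypes at rest the lowest was 0.0826, under the limit of 0.1, and there they were not.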

Additional observations from a re-analysis of the deposited data

How the results depend on the processing

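Counts of members called in each comparison were recomputed under the alternatives, and 712 stayed within 1.5 times the reported count while 13 did not. They were, with the replicate block, 8 in place of 5 members higher after LPS than after anti-IgM in Ubqln1-/- cells and 1 in place of 0 between genotypes after anti-IgM (Ppp1r15a), and, without the filter on low counts, 3 in place of 5 lower after LPS than at rest in Ubqln1-/- cells. With single libraries left out, the members higher and lower after LPS than after anti-IgM in Ubqln1-/- cells ranged from 3 to 6 and from 6 to 13, those lower after LPS than at rest in Ubqln1-/- cells from 3 to 5, those that rose more than 2-fold after anti-IgM in WT cells from 6 to 10, and those more than 2-fold lower after LPS than after anti-IgM from 0 to 1 in each genotype. The cause was not tested. The block moved 24 calls of members, given beside the results where they concern them, and changed no other call of a member. In the resting genotype comparison, where the numbers did not pair the samples, it called 0 members and 49 genes in place of 8. For named genes, 2065 recomputed log2 fold changes kept direction and call, 35 kept direction and lost the call, and none reversed. Low counts limit the reading of Sec61b, and the spread between replicates that of Trib3. Only mRNA was measured, at 1 time, so splicing of Xbp1, sensor activity and protein are outside these data.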
